A study of Mus musculus with 6 samples.

Results

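Bmp10, Cited1, Cited2, Mycn and Prdm16 are 5 genes grouped here as regulators of the ventricular wall, and they were followed in RNA of whole mouse hearts taken at embryonic day 11.5. They were taken by symbol from a deposited table of FPKM values (fragments per kilobase of transcript, scaled to the mapped fragments of a library, so that levels are per length), where all 5 were found among 38918 listed genes. The control embryos were littermates carrying 1 floxed and 1 wild-type allele of Tie2, the angiopoietin receptor encoded by Tek. The mutants, on the same C57/BL6 background, carried Nfatc1Cre and Tie2 flox/flox, so that Cre is expressed from Nfatc1 in the endocardium, the inner lining of the heart; the labels name no Cre for the controls, and effects of Cre and of Tie2 loss cannot be told apart. For each genotype 18 hearts gave 3 libraries, and by the series text their RNA was pooled and then portioned. P-values therefore measure only the spread between these libraries, which may be technical.

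At this stage the ventricular wall has an outer compact layer of dividing cardiomyocytes and an inner meshwork of trabeculae, muscular ridges covered by endocardium. BMP10 is a secreted growth factor of trabecular cardiomyocytes that keeps them dividing and signals through BMP receptors and SMAD proteins. CITED1 and CITED2 are transcriptional coregulators without a DNA-binding domain of their own that bind the coactivators CBP and p300. MYCN (N-myc) is a transcription factor of the compact layer that drives cardiomyocyte division, and PRDM16 is a zinc finger transcription factor needed for compact myocardium, whose loss is known to cause noncompaction.

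Some differences between libraries bear on what follows. Tek went with the labels, reading 22.4, 25.7 and 16.6 FPKM for control replicates 1, 2 and 3 against 3.38, 3.13 and 3.13 FPKM for conditional knockout replicates 1, 2 and 3. All 12 sarcomere markers of cardiomyocytes were present in each library. Their summed level was 27978 to 29551 FPKM in controls and 19365 to 29789 FPKM in conditional knockouts, with the lowest sum in conditional knockout replicate 1. In control libraries the 10 endothelial markers summed to 324 to 377 FPKM, and in mutant libraries to 252 to 289 FPKM, so these sums did not overlap. The drop was not shared by the whole list: 8 of the 10 were separated between genotypes, and Emcn and Erg overlapped. Emcn went the other way, with a mean of 45.6 FPKM for the controls against 48.6 FPKM for the mutants. Xist, the RNA of the inactive X chromosome, stood at 8.997, 40.7 and 0.0171 FPKM in the control libraries and 32.9, 0.0295 and 0.0324 FPKM in the mutant libraries. These values differ more than portions of a single pool would, and the number of hearts in each library is unclear. The globin genes Hbb-y and Hba-x were listed at 0 in all 3 controls and stood at 17557 to 23965 FPKM and at 11129 to 18709 FPKM in conditional knockouts. A value of 0 for genes of circulating blood cells can be a failed estimate. Whether the fragments of these genes affected the scaling of a library cannot be told from the FPKM values. The other 6 erythroid genes had log2 fold changes between -0.41 and 0.11.

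The members were tested in a limma fit on the 12988 genes whose mean reached 1 FPKM, on log2(FPKM + 1), with p-values adjusted over all of these genes (Benjamini-Hochberg, threshold 0.05). All 5 members passed the filter on low values. None of the 5 was called in limma, where 0.177% of all genes tested were called (0.123% lower and 0.0539% higher in the mutants), and 1 of the 5, Cited1, had an unadjusted p under 0.05. Over all genes tested 6.68% had one, 4.37% lower and 2.31% higher in the mutants. The genes called higher include the globin genes Hbb-y and Hba-x. The genotypes had no overlap between libraries for 1 member, again Cited1, which was lower. Among all genes tested 8.17% were separated in that direction, 5.23% in the other and 13.4% in either. The median log2 fold change (conditional knockout minus control) was -0.05 over the members and -0.01 over all genes tested. In whole hearts, fewer cells of a type and less RNA per cell cannot be told apart.

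Cited1 and Bmp10 had the largest differences between genotypes, and the 250 bases before their transcription starts are shown to give the sequence context of these genes. The bases come from RefSeq on GRCm38.p6, 5′ to 3′ on the strand of the gene, at chrX:102252182-102252431 (minus strand) for Cited1 and chr6:87428744-87428993 (plus strand) for Bmp10. RefSeq lists 3 starts for Cited1, and the one shown coincides with the outermost start in GENCODE. Capitals mark matches, on either strand, to any of 6 short motifs: AGATAA for GATA factors, AAGTG for the core of the NKX2-5 site, TATAAA for the core promoter box of that sequence, CACGTG for the E-box of MYC proteins, GCCNNNGGC for AP-2 factors and AGGTGTGA for T-box factors. None of the matches shown overlap.

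Cited1: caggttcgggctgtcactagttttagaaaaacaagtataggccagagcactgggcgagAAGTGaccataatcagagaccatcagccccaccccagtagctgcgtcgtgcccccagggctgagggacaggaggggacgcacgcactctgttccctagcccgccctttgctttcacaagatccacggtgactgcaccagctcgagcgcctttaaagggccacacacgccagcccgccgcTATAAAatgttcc
Bmp10: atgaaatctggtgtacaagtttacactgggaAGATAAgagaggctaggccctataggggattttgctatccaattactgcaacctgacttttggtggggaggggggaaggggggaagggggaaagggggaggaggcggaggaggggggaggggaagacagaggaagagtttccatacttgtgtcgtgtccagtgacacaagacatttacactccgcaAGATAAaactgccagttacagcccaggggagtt

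The Bmp10 window held 2 matches to AGATAA, which 9.99% of 32851 RefSeq windows of the same 250 bases before a start held at least once. The Cited1 window shown held 1 match to TATAAA (12.4% of windows) and 1 to AAGTG (40.7% of windows). The windows of the other Cited1 starts differed from it: 1 held 3 matches to AAGTG and 1 to GCCNNNGGC, and 1 held a match to TATAAA and none to AAGTG. The Cited2 window held 1 match to CACGTG (6.02% of windows) and 1 to AAGTG, the Prdm16 window 2 to AAGTG and 1 to GCCNNNGGC (13.7% of windows), and the Mycn window none of the 6. AGGTGTGA, held by 1.12% of windows, had no match in any of the 5 genes. A match is a description of the letters and not a binding site, and the FPKM values do not separate transcripts by their start.

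Cited1, the coregulator, was by far the most abundant of the 5 genes and had the largest difference between genotypes. The gene lies on chromosome X from 102247381 to 102252181 (GRCm38, minus strand) and is protein coding, with 5 annotated transcripts. It was measured at 330.4, 342 and 273 FPKM in control replicates 1, 2 and 3 and at 196, 204 and 213 FPKM in conditional knockout replicates 1, 2 and 3. Each conditional knockout library was below each control, and the mutants lay closer together than the controls. The means were 315 ± 37.1 FPKM and 204 ± 8.39 FPKM (SD, n = 3 each), a 1.54-fold lower mean. The log2 fold change was -0.62 ± 0.12 (SE), with an adjusted p of 0.239 in limma and a 95% interval, before any adjustment, of -0.90 to -0.33. An exact two-sided permutation test of Cited1 alone gave p = 0.1, the smallest that 3 libraries against 3 allow. The endothelial marker sum was lower in each mutant too, and its part in the Cited1 difference was not tested. By unadjusted p, Cited1 ranked 69 among the 12988 genes in limma.

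Cited1 is X-linked, and Xist differed between libraries. Control replicate 3 and conditional knockout replicates 2 and 3 all had Xist at 0.0324 FPKM or less, and Cited1 there was 273 FPKM in the control and 204 and 213 FPKM in the mutants. Among the libraries with Xist above that level, Cited1 was 330.4 and 342 FPKM in controls and 196 FPKM in the mutant. The part of the sex-linked levels in the Cited1 difference was not tested with these few libraries. With the level of Y-linked genes as a covariate, the log2 fold change of Cited1 was -0.46 ± 0.17 (SE). In that limma fit the unadjusted p was 0.033 and the adjusted p 0.9999. With each library centred on the sarcomere markers, Cited1 had a log2 fold change of -0.43 ± 0.22 (SE). This second limma fit gave an unadjusted p of 0.067 and an adjusted p of 0.926.

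Cited2, the relative of Cited1 that restrains hypoxia-inducible factor by competing for CBP and p300, was expressed about an order of magnitude lower. It lies on chromosome 10 from 17723218 to 17725674 (plus strand). The control libraries read 39.1, 31.7 and 30.2 FPKM and the mutant libraries 28.2, 30.2 and 30.3 FPKM. Control replicate 1 was the highest library, and the other 5 lay between 28.2 and 31.7 FPKM. The means were 33.7 ± 4.74 and 29.6 ± 1.18 FPKM (SD, n = 3 each). This was a log2 fold change of -0.17 ± 0.12 (SE), at an adjusted p of 0.811 in limma. The 95% interval ran from a ratio of 0.731 to 1.07 of mutant over control. Without control replicate 1 the log2 fold change was -0.07, and without both replicate 1 libraries it was -0.03.

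Bmp10, the trabecular growth factor, had the second largest difference among the 5, in the other direction and with overlapping groups. It lies on chromosome 6 from 87428994 to 87437677 (plus strand) with a single annotated transcript of 4490 bases in 2 exons. The control libraries read 20.9, 30.1 and 28.6 FPKM and the mutant libraries 23.3, 37.3 and 38.4 FPKM. Conditional knockout replicates 2 and 3 were above every control, while conditional knockout replicate 1 lay between the controls. The means were 26.5 ± 4.94 and 33.0 ± 8.41 FPKM (SD, n = 3 each), a log2 fold change of 0.29 ± 0.22 (SE, limma adjusted p = 0.815), and the 95% interval of the ratio was 0.856 to 1.75.

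The size of the Bmp10 difference turned on single libraries and on the scale. Its log2 fold change was 0.52 without conditional knockout replicate 1, 0.13 without control replicate 1, 0.19 and 0.17 without conditional knockout replicates 2 and 3, and 0.01 with the level of Y-linked genes as a covariate. Y-linked Eif2s3y was measured at 17.7, 20.0 and 41.0 FPKM in the control libraries and 34.1, 52.8 and 55.6 FPKM in the mutant libraries. Each Y-linked gene had a higher mean in the mutants, so the fit with this covariate cannot fully separate it from genotype. Centred on the sarcomere markers, Bmp10 had a log2 fold change of 0.48 ± 0.21 (SE, limma unadjusted p = 0.038, adjusted p = 0.926). In each replicate number the mutant library was above the control, although the numbers were not treated as pairs. With the replicate number as a block, the log2 fold change was 0.29 ± 0.09 (SE, limma unadjusted p = 0.017, adjusted p = 0.35). Within replicates 2 and 3 only it was 0.36 ± 0.07 (SE, limma unadjusted p = 0.0038, adjusted p = 0.291). None of these fits passed the threshold on adjusted p.

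Mycn, the driver of division in the compact layer, varied least. It lies on chromosome 12 from 12936093 to 12941914 (minus strand). The control libraries read 17.8, 16.5 and 16.1 FPKM and the mutant libraries 15.8, 16.2 and 16.5 FPKM. The groups overlapped, and the SD was 5.31% of the mean in controls and 2.11% in conditional knockouts. The means differed by a log2 fold change of -0.05 ± 0.09 (SE), at an adjusted p of 0.922 in limma. The 95% interval of the ratio, 0.837 to 1.11, leaves room for a difference of up to these sizes.

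Prdm16 was the least abundant member. It lies on chromosome 4 from 154316125 to 154636873 (minus strand), on the same chromosome as Tek, with 13 annotated transcripts. The control libraries read 1.55, 2.29 and 2.08 FPKM and the mutant libraries 2.41, 1.65 and 1.95 FPKM. The lowest and the highest library were both replicate 1, of opposite genotype, and the groups overlapped over nearly their whole range. The means differed by a log2 fold change of 0.02 ± 0.16 (SE), at an adjusted p of 0.993 in limma, with a 95% interval of the ratio of 0.78 to 1.31. Its sign turned without control replicate 1 (-0.09), without conditional knockout replicate 1 (-0.08) and without both (-0.19). In GENCODE 3 genes on the opposite strand overlap Prdm16, and their values were at most 0.0337 FPKM in any library.

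**Figure D1:**
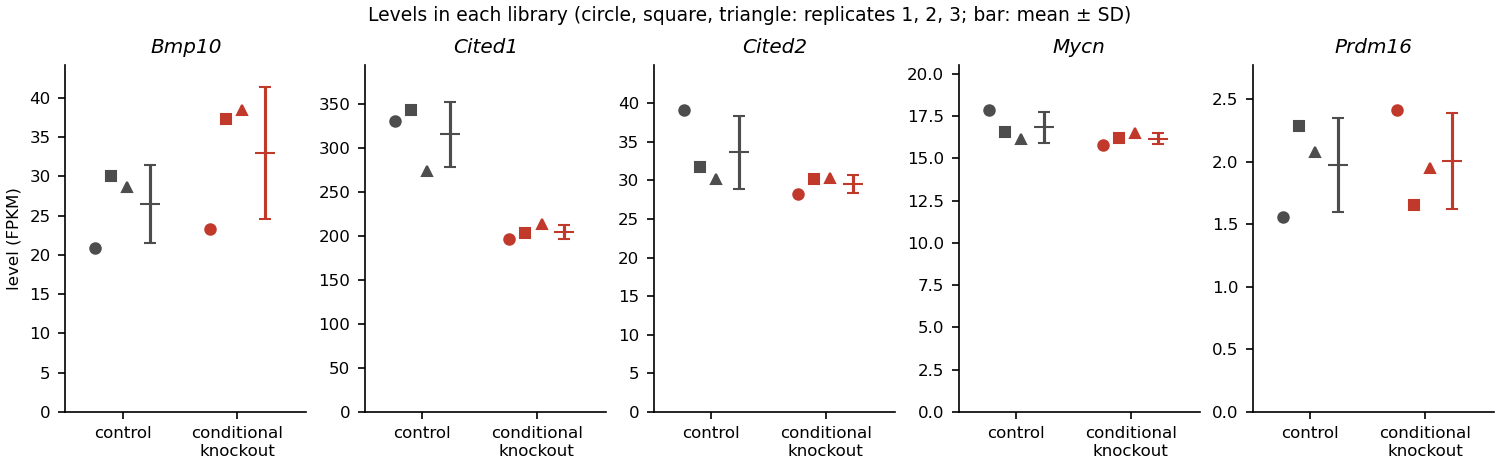
FPKM of the 5 genes in each library, with control in grey and conditional knockout in red, replicates 1 to 3 as circle, square and triangle, and the mean ± SD as a bar beside them. The Cited1 libraries lie between 273 and 342 FPKM in controls and between 196 and 213 FPKM in conditional knockouts, and the groups overlap for the other 4 genes.

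FPKM is scaled to length, so the levels of the 5 genes can be set side by side. In each control the order from high to low was Cited1, Cited2, Bmp10, Mycn and Prdm16. Conditional knockout replicate 1 kept this order, and in conditional knockout replicates 2 and 3 Bmp10 stood above Cited2. Bmp10 and Cited2 were close, at 26.5 ± 4.94 against 33.7 ± 4.74 FPKM in controls and 33.0 ± 8.41 against 29.6 ± 1.18 FPKM in conditional knockouts. In controls the lowest Cited2 value, 30.22 FPKM, was just above the highest Bmp10 value, 30.05 FPKM. In conditional knockouts the values of these genes overlapped. Every other pair of neighbours was separated in all 6 libraries. Cited1 exceeded 97.8% of the genes tested by mean level and Prdm16 exceeded 10.2%.

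Ratios within a library do not depend on its total, and they were taken without a test. Cited1 over Cited2 was 8.46 to 10.8 in controls and 6.75 to 7.03 in conditional knockouts. Cited1 over Mycn was 16.9 to 20.7 in controls and 12.4 to 12.9 in conditional knockouts. Both ratios were lower in each mutant library than in each control, as the Cited1 level itself was. The share of all genes with such a ratio was not computed. Bmp10 over Mycn was 1.17 to 1.82 in controls and 1.47 to 2.33 in conditional knockouts, and these ranges overlapped.

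Against the sarcomere markers of the same library, Bmp10 separated the genotypes and Cited1 did not. The log2 ratio of Bmp10 to the mean of the 12 markers was -5.93, -5.59 and -5.60 in controls and -5.29, -5.23 and -5.14 in conditional knockouts, so each mutant library lay above each control. Set against the markers singly, Bmp10 was higher in all 3 mutants with 11 of the 12. For Cited1 the log2 ratio was -1.94, -2.08 and -2.35 in controls and -2.22, -2.79 and -2.67 in conditional knockouts. With single markers Cited1 was lower in all 3 mutants with 6 of the 12. Counts with single markers were not made for all genes. Centring on the mean of the 12 markers shifted the median of all genes to 0.18. Then 10.3% of all genes tested were higher, and 0.531% lower, in each mutant than in each control. Bmp10 was the single member of the 5 so separated. The sarcomere markers had log2 fold changes between -0.34 (Myh7) and 0.01 with a median of -0.20, none called in limma and none at an unadjusted p under 0.05. The most abundant, Myl2, ranged from 5679 to 6777 FPKM in 5 libraries and read 4047 FPKM in conditional knockout replicate 1.

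**Figure D2:**
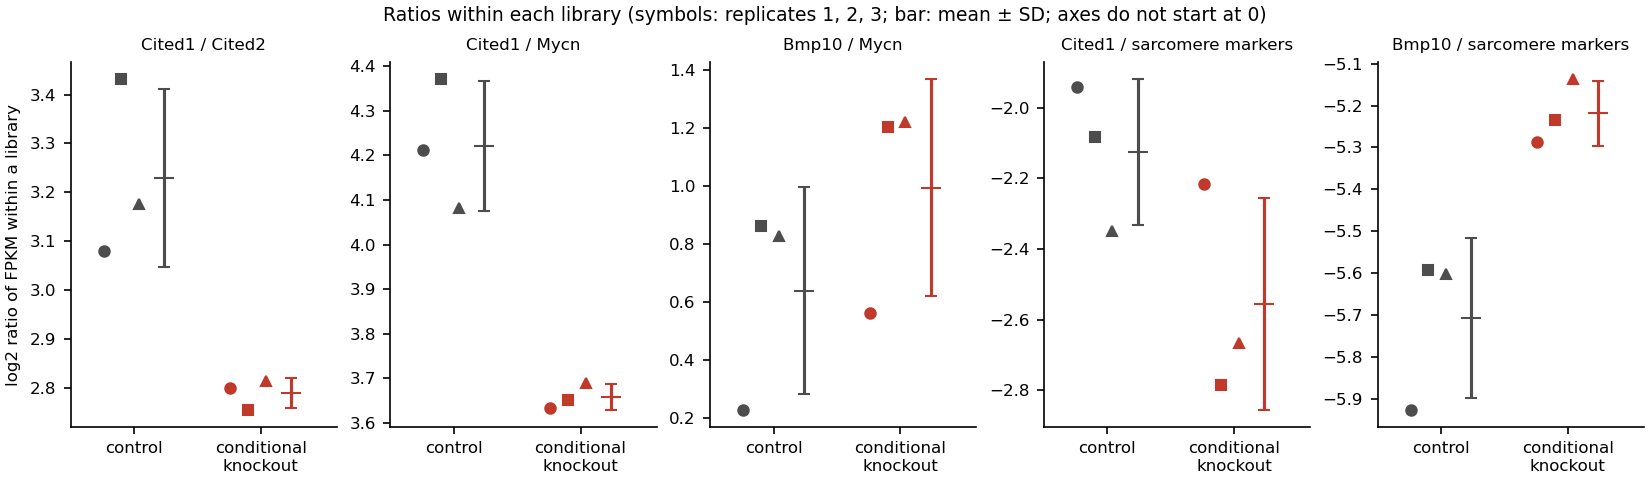
Log2 ratios of FPKM within each library for 3 pairs of members and for Cited1 and Bmp10 over the mean of 12 sarcomere markers, with replicates as circle, square and triangle and the mean ± SD as a bar. Cited1 over Cited2 and Cited1 over Mycn are lower in each conditional knockout library, Bmp10 over the sarcomere markers is higher, and the other ratios overlap between genotypes.

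Other trabecular and compact genes were compared from lists chosen with earlier results of these data known. Of 8 other trabecular genes none was called in limma, 7 lay below 0 and 2 had an unadjusted p under 0.05, with a median log2 fold change of -0.14, where 53.2% of all genes tested lay below 0 with a median of -0.01. Nppa, the atrial natriuretic peptide gene, was the most abundant and the furthest from 0, at 681, 779 and 756 FPKM in the control libraries and 503, 627 and 602 FPKM in the mutant libraries. Nppa, Irx3 and Gja5 were lower in each mutant than in each control, as were 8.17% of all genes tested, while Nppb lay above 0 at 0.13. Of 8 other compact genes none was called, 5 lay below 0 and 2 had an unadjusted p under 0.05, with a median of -0.07. The T-box gene Tbx20 had the highest level, with means of 78.4 ± 2.97 and 81.3 ± 9.08 FPKM (SD, n = 3 each). Hand1 was furthest from 0, at 38.9, 30.6 and 27.07 FPKM in the control libraries and 27.06, 22.3 and 23.7 FPKM in the mutant libraries. It was 1 of 2 compact genes lower in each mutant than in each control.

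**Figure D3:**
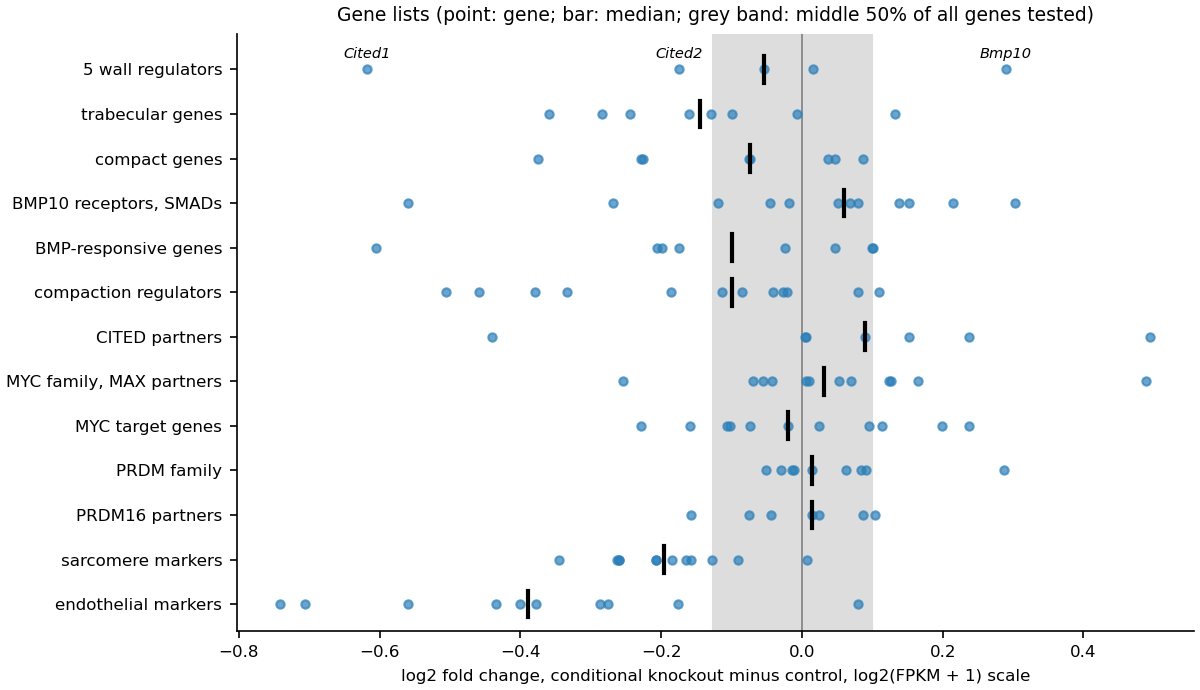
Log2 fold change (conditional knockout minus control) of each tested gene in 13 lists, with the median of a list as a black bar and the middle 50% of all 12988 genes as a grey band from -0.13 to 0.10. Cited1 lies furthest to the left among the 5 wall regulators and Bmp10 furthest to the right, and the endothelial markers have the lowest median, at -0.39.

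The genes around BMP10 were measured next. Of 13 receptor, SMAD and ligand genes 12 could be tested and none was called in limma, with 5 below 0, 7 above, a median of 0.06 and 2 at an unadjusted p under 0.05. Eng, the endothelial coreceptor endoglin that binds BMP10, was both the most abundant and the furthest from 0, at 61.0, 81.6 and 70.3 FPKM in the control libraries and 40.6, 54.6 and 48.4 FPKM in the mutant libraries (log2 fold change -0.56 ± 0.15, SE, limma adjusted p = 0.533). Its groups did not overlap, as for 8 of the 10 endothelial markers, of which it is 1. Among all genes tested 8.17% were separated in that direction. The part of the endothelial RNA level in the Eng difference was not tested. Gdf2, which encodes BMP9, the liver-made relative of BMP10, had its highest value, 1.105 FPKM, in conditional knockout replicate 2 and stood at 0.171 to 0.683 FPKM elsewhere. In that library 7 liver genes summed to 259 FPKM, against 4.42 to 98.3 FPKM in the other 5.

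Of 8 genes that respond to BMP signals none was called, 5 lay below 0, 1 had an unadjusted p under 0.05 and the median was -0.10. Cdkn1c, which encodes the cell cycle inhibitor p57 and is known to be restrained by BMP10 in the ventricle, was the most abundant and the furthest from 0. It stood at 823, 587 and 575 FPKM in the control libraries and 408, 449 and 429.8 FPKM in the mutant libraries. Each mutant library was below each control (log2 fold change -0.60 ± 0.16, SE, limma adjusted p = 0.498), as for 8.17% of all genes tested. A link between Bmp10 and the Cdkn1c difference was not tested. Of 12 genes linked to Bmp10 or compaction none was called and 10 lay below 0. Of these 12, 2 had an unadjusted p under 0.05, and the median was -0.10. Notch1, the Notch receptor of the endocardium, was furthest from 0 at -0.51 ± 0.13 (SE, limma adjusted p = 0.463). The part of the endothelial RNA level in the Notch1 difference was not tested. Fkbp1a, the most abundant, had a log2 fold change of -0.09, with 577 FPKM in control replicate 1 and 360 to 442 FPKM elsewhere.

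Partners of the CITED proteins had no call in limma and no unadjusted p under 0.05 among 7 tested of 11, with 1 below 0 and a median of 0.09. Hif1a, the hypoxia-inducible factor gene, had the highest level, with means of 85.4 ± 9.38 and 90.7 ± 6.60 FPKM (SD, n = 3 each). Cited4, a further CITED coregulator, stood at 45.2, 30.2 and 21.1 FPKM in the control libraries and 21.5, 28.5 and 18.2 FPKM in the mutant libraries, and these groups overlapped. Isl1, a transcription factor of heart progenitors, ranged from 2.44 to 3.35 FPKM in 5 libraries and read 10.5 FPKM in conditional knockout replicate 1.

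The MYC network had no call and no unadjusted p under 0.05 among 12 genes (4 below 0, median 0.03). Myc stood at 15.3 ± 1.49 and 17.0 ± 3.74 FPKM, close to the level of Mycn, and Max, the dimerisation partner, at 26.2 ± 1.99 and 27.5 ± 0.313 FPKM (SD, n = 3 each). Mycl, the third MYC gene, ranged from 0.523 to 0.725 FPKM in 5 libraries and read 2.84 FPKM in conditional knockout replicate 1. Of 11 MYC target genes none was called or had an unadjusted p under 0.05, with 6 below 0 and a median of -0.02. Npm1, the nucleophosmin gene and the most abundant, had a log2 fold change of 0.20 and Nop56, a ribosome assembly gene, one of 0.24.

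The PRDM family had no call and no unadjusted p under 0.05 among 9 tested of 14 (4 below 0, median 0.01). Mecom, the closest relative of Prdm16, stood at 11.01, 15.9 and 15.8 FPKM in the control libraries and 16.2, 14.6 and 14.2 FPKM in the mutant libraries, above Prdm16 in each library. Like Prdm16, Mecom was lowest in control replicate 1 and highest in conditional knockout replicate 1. Prdm15 was furthest from 0 at 0.29. Among 7 partners of PRDM16 none was called or had an unadjusted p under 0.05 (3 below 0, median 0.01), with the demethylase gene Kdm1a the most abundant at 0.10 and the corepressor gene Ctbp1 furthest from 0 at -0.16.

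The genes whose profile over the 6 libraries was most like that of each member were found by the root mean square distance between centred log2(FPKM + 1) values, over 11644 genes with a standard symbol, and are given as a description. For Cited1 they were Rai2 (distance 0.055) and Pnpla2 (0.061). Rai2 stood at 2.58, 2.42 and 2.05 FPKM in the control libraries and 0.994, 1.11 and 1.27 FPKM in the mutant libraries. For Bmp10 they were Mphosph10 (0.051) and Ccdc66 (0.067), which were also lowest in replicate 1 of each genotype. For Cited2 they were Clic4 (0.02) and Tmem178 (0.024), for Mycn Stx12 (0.015) and Gtf2b (0.016), and for Prdm16 Sema4c (0.034) and Gpt (0.042). With 6 libraries and this many genes, close profiles arise for any gene, most of all for one that varies as little as Mycn.

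The range of each difference over the alternatives was also compared, with no member past the threshold in any of the 79 fits that could be made for a member over 16 alternatives. Cited1 stayed below 0 and Bmp10 above 0 in all of theirs, Bmp10 at 0.01 ± 0.29 (SE) with the Y-linked covariate. All alternatives use the same libraries and are not independent. Because its groups did not overlap, Cited1 could not change sign when a library was left out.

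**Figure D4:**
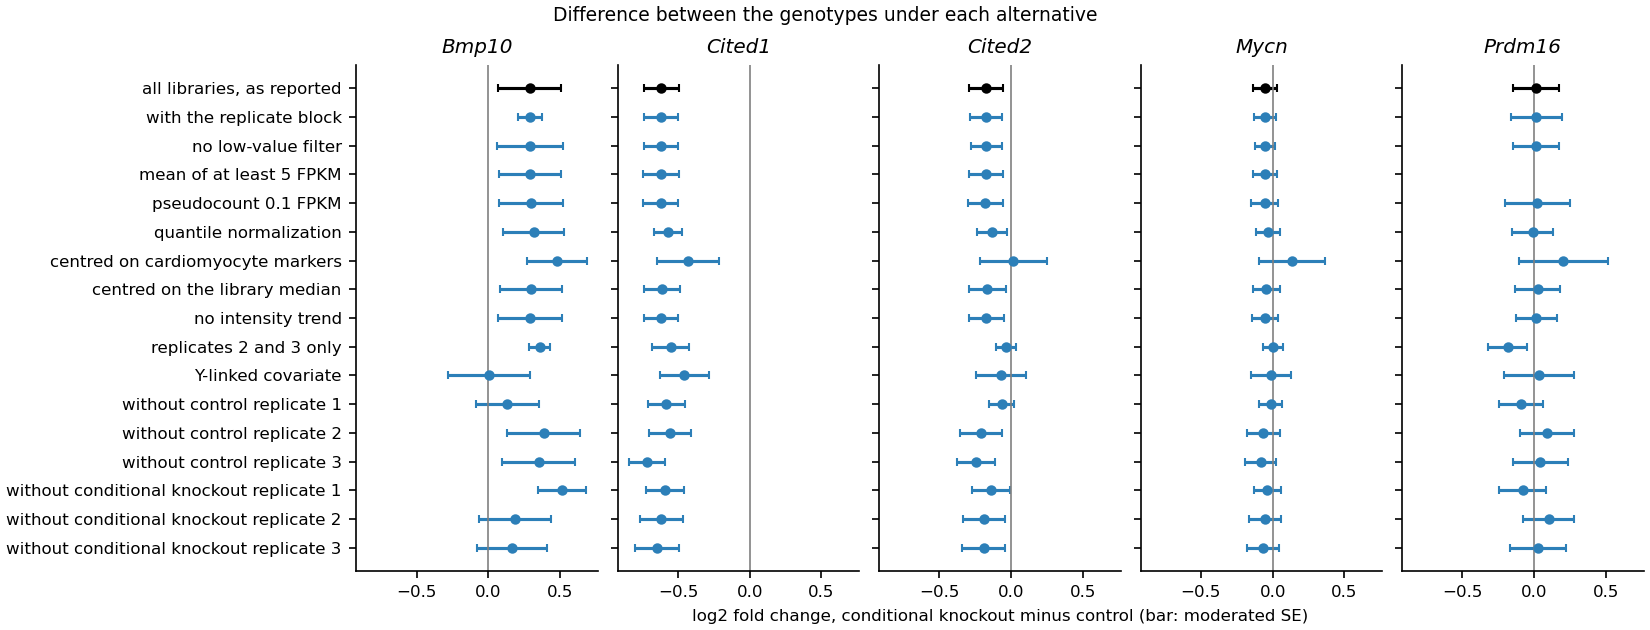
Log2 fold change (conditional knockout minus control) with its moderated SE for each of the 5 genes, with all libraries in black and under each alternative in blue. Cited1 lies between -0.72 and -0.43 under the alternatives, Bmp10 between 0.01 and 0.52, and the points of Cited2, Mycn and Prdm16 fall on both sides of 0.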

How the data were processed

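The authors deposited 1 table of FPKM values, 1 column per library. The submitters' processing notes name TopHat2 2.0.9, Cufflinks 2.2.1, Cuffdiff and HTSeq, without roles, and build mm10; of the annotation, strand setting and handling of multiply matching reads, nothing is given in the sources used here. RNA was isolated with Trizol and libraries made with a TruSeq kit, per the labels' protocols. FPKM gives no counts, so depth is unknown; values summed to 481334 to 582261 per library. Values were analysed as log2(FPKM + 1), which understates the change of low genes, with limma 3.58.1 (R 4.3.3), an intensity trend and no block, tested on simulated data (4 residual and 3.33 prior degrees of freedom). FPKM errors are SD over libraries, fold change errors moderated SE. Positions are from GENCODE M21 on GRCm38, the assembly of mm10. The symbols of 2 listed genes were matched by identifier. The members and lists were chosen with earlier results of these data known. Named genes are the members, Tek, close family members, sex-linked genes, the nearest profiles and, per list, called genes or otherwise the most abundant and the furthest from 0; Irx3, Gja5, Nppb and those in the last part were chosen after their values were seen.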

Additional observations from a re-analysis of the deposited data

How the results depend on the processing

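No member was called under any of the 16 alternatives. Over all genes, 16 were lower and 7 higher, the latter including Hbb-y and Hba-x, which were listed at 0 in the controls. With no filter on low values 7 were lower, and with libraries centred on the sarcomere markers 1. Within replicates 2 and 3 only 8 were lower, and with the Y-linked covariate 1. Leaving out each library in turn gave 4 to 9 lower and 6 to 11 higher genes. Cited2 reversed when centred on the sarcomere markers (0.014), as did Mycn (0.14), which also reversed within replicates 2 and 3 (0.0021). Prdm16 reversed with quantile normalization (-0.011), within replicates 2 and 3 (-0.19), and without control replicate 1 (-0.090) or conditional knockout replicate 1 (-0.080), over a range of -0.090 to 0.10 without any 1 library; the cause was not tested. A minimum of 5 FPKM leaves Prdm16 out. Replicate numbers were not treated as pairs: deviations from group means correlated across genes at 0.19, 0.031 and 0.23 between same-numbered libraries, and 5 of 6 libraries correlated best with their own number. With the replicate block 11 genes were lower and 6 higher; the adjusted p in limma was 0.248 for Cited1 and 0.35 for Bmp10. Unknown depth limits what can be said of Prdm16, at about 2 FPKM.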

Other observations

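Genes of the AP-2 family, whose proteins bind CITED coregulators, were under the level tested, and conditional knockout replicate 1 stood apart in them. Tfap2a was at 1.24 FPKM in that library and at 0.179 to 0.348 FPKM in the other 5. Tfap2b was at 0.694 FPKM there and at most 0.0485 FPKM elsewhere, and Tfap2c at 0.651 FPKM and at most 0.0812 FPKM. Cited1 was at 196 FPKM there, beside 204 and 213 FPKM in the other mutants, and a link with the AP-2 genes was not tested. Isl1 and Mycl were also highest in that library, and the sarcomere marker sum was lowest.

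Among marker lists of other cells, 6 epicardial genes had no call in limma and a median log2 fold change of 0.10, with Upk3b the most abundant (-0.19) and Wt1 furthest from 0 (0.24). The 7 cushion mesenchyme genes had no call and a median of 0.11, with Vcan the most abundant (0.22) and Prrx1 furthest from 0 (0.50). Each list had 1 gene at an unadjusted p under 0.05. The 6 liver genes tested had no call and no unadjusted p under 0.05 (median -0.25), with Afp, the alpha-fetoprotein gene, at 51.5, 11.2 and 15.7 FPKM in the control libraries and 2.204, 123.4 and 0.249 FPKM in the mutant libraries. Of the 10 endothelial genes none was called, with Tie1 furthest from 0 at -0.74 (adjusted p = 0.0572 in limma). Of these 10, 7 were lower at an unadjusted p under 0.05, against 4.37% of all genes tested. Of 5 sex-linked genes none was called and 3 had an unadjusted p under 0.05.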
